A study of Mus musculus with 6 samples.

Results

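The genes described here encode the protein disulfide isomerases of the endoplasmic reticulum (ER) and the oxidases that drive them. They are the 10 symbols P4hb, Pdia3, Pdia4, Pdia5, Pdia6, Txndc5, Tmx1, Erp44, Ero1l and Ero1lb, taken by name from the 23225 gene symbols of the count table, and all 10 were found there and passed the filter on low counts. Their RNA was counted in tumour-associated dendritic cells, sorted at day 23 from C57BL/6 mice bearing ID8-based tumours, a model of ovarian cancer with ascites. The XBP1-KO group (3 libraries) came from mice whose Xbp1 gene is deleted only in cells that express CD11c, and the WT group (3 libraries) from mice labelled wild type. The labels name no Cre line or floxed allele, do not say whether the WT mice carried either, and do not say whether each library came from 1 animal, so a p-value here reflects how far these libraries vary, which may be technical. Cells of the sort that do not express CD11c keep the gene.

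Proteins that enter the ER fold there while their cysteines are joined into disulfide bonds. Isomerases of the thioredoxin fold pass these bonds to the client protein and rearrange wrong ones, and the Ero1 flavoenzymes reoxidise the isomerases, handing the electrons to oxygen with hydrogen peroxide as the product. XBP1, made active when the ER stress sensor IRE1 splices its mRNA, is a transcription factor known to raise genes of ER folding and secretion, several isomerases among them. Dendritic cells need this machinery for secreted cytokines, surface receptors and MHC molecules.

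The libraries held between 26946349 and 32709100 counts. Libraries of a genotype are called a, b and c by column order, since the columns carry no replicate number, and a letter pairs nothing. Libraries XBP1-KO b and WT b stood apart from the other 4 on the second principal component of log2 CPM (a count relative to its library total, which was scaled by the trimmed mean of M-values, TMM), at 30.1 and 38.3 against values between -45.0 and -0.99. The labels name no batch. Fits below that drop XBP1-KO b and WT b, or set them as a batch term, use a grouping read from these data. All 12 dendritic cell markers were detected in every library, led by Cd74 and H2-Aa, and their summed level was 74824 to 107075 CPM in XBP1-KO and 80257 to 130319 CPM in WT. Most of this sum was Cd74. Of the 12, 9 were lower and 3 higher in XBP1-KO, and none passed the test described below. Itgax, which encodes CD11c, was higher in every XBP1-KO library, at 146 against 103 CPM on average (edgeR adjusted p 0.106). Ciita was lower in every XBP1-KO library, at 136 against 189 CPM (edgeR adjusted p 0.131). The 15 T and NK cell markers summed to 354 to 516 CPM in XBP1-KO and 253 to 278 CPM in WT, none of them was at 0 in any library, and 5 rose in the test described below (Cd3e, Lck, Ncr1, Nkg7 and Xcl1). Klrk1 and Klrb1c had the highest means over all 6 libraries, though in XBP1-KO alone Nkg7 (69.4 CPM) was above Klrb1c (59.6 CPM). The summed levels in XBP1-KO and WT, with the 2 markers of highest mean over all 6 libraries in brackets, were 398 to 559 and 197 to 378 CPM for 8 B cell markers (Cd79b and Ms4a1), 74.2 to 144 and 103 to 163 CPM for 8 plasma cell markers (Irf4 and Igj), 234 to 484 and 46.3 to 251 CPM for 7 neutrophil markers (Retnlg and S100a8), and 148 to 203 and 121 to 194 CPM for 8 mast cell markers (Kit and Cma1), of which Cma1, Tpsb2 and Cpa3 rose. They were 15474 to 18614 and 13058 to 22401 CPM for 11 macrophage markers (Lyz2 and Cd68, with Itgam and Mrc1 fallen), 107 to 189 and 127 to 170 CPM for 8 tumour and mesothelial markers (Krt19 and Krt18), and 42.1 to 63.7 and 41.9 to 46.4 CPM for 7 fibroblast markers (Dcn and Pdgfra). Of the 11 macrophage markers 6 were lower and 5 higher in XBP1-KO. Icam2, which DESeq2 called, was higher in every XBP1-KO library, at 78.5 against 51.7 CPM on average (edgeR adjusted p 0.0678). Higher in XBP1-KO were all 15 T and NK cell markers, all 7 neutrophil markers, 7 of 8 B cell markers and 6 of the 7 mast cell markers tested. Plasma cell markers split into 4 lower and 4 higher, tumour and mesothelial markers into 3 lower and 5 higher, and the 5 fibroblast markers tested into 3 lower and 2 higher. Kit, the most abundant of the mast cell markers, was lower in every XBP1-KO library, at 63.5 against 102 CPM on average. It did not pass in edgeR (adjusted p 0.209), while DESeq2 called it. Tnfrsf17 of plasma cells was at 0 in WT a, and every other marker was above 0 in all 6 libraries. The part of these other cells in the differences below was not tested, and in sorted bulk RNA fewer cells of a type and less RNA per cell cannot be told apart. Xbp1 itself had 32.5, 30.9 and 40.4 CPM in the XBP1-KO libraries and 67.2, 48.7 and 76.8 CPM in the WT libraries, and its adjusted p was 0.0545 (edgeR quasi-likelihood, Benjamini-Hochberg). A count per gene cannot tell mRNA that lacks the deleted part from full-length mRNA, so it checks the genotype only in part.

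XBP1 and the related factor ATF6 are known to act through short promoter elements. The ER stress response element (ERSE) is CCAAT and CCACG with 9 bases between them, ERSE-II is ATTGG and CCACG with 1 base between them, and the core of the unfolded protein response element (UPRE) is TGACGTGG. These were searched on both strands in the RefSeq promoter windows of mouse build GRCm38.p6, from 250 bases before to 50 after each annotated start, which matched all 10 genes with 13 windows (Erp44 has 2 that overlap and Txndc5 has 3). Pdia6 and Ero1lb held an ERSE, which 0.119% of all 32851 windows hold. Txndc5 held a UPRE core upstream of the third of its starts, which 0.676% of all windows hold. No member window held an ERSE-II, against 0.0365% of all. The half-element CCACG, which lies inside both ERSE forms and, on the other strand, overlaps the UPRE core, was in 10 of the 13 windows, which belong to 8 of the 10 genes, against 32.8% of all windows. Pdia3 and Tmx1 had none. The 2 overlapping Erp44 windows hold the same CCACG, which is counted in both, and the 32.8% is a share of windows, not of genes. A match describes letters in these windows and shows no binding.

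The windows with an ERSE or a UPRE core are shown with that of Pdia4, the gene that passed the test below. Each is 300 bases, written 5′ to 3′ in the direction of the gene, and capitals mark the ERSE in Pdia6 (chr12:17266339-17266638, + strand) and Ero1lb (chr13:12565633-12565932, + strand), the UPRE core in Txndc5 (chr13:38527865-38528164, - strand) and CCACG in Pdia4 (chr6:47813463-47813762, - strand).
Pdia4: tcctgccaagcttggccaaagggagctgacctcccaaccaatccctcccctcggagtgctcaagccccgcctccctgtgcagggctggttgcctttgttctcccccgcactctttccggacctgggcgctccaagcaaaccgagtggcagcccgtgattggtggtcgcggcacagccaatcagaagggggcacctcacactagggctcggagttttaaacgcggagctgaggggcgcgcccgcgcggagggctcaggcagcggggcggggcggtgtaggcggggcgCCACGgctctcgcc
Pdia6: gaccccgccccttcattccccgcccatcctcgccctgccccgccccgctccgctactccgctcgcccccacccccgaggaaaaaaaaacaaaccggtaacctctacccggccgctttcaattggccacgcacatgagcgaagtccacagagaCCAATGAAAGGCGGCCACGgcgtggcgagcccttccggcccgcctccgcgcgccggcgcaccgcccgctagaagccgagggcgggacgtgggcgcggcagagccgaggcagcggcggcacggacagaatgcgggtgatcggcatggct
Ero1lb: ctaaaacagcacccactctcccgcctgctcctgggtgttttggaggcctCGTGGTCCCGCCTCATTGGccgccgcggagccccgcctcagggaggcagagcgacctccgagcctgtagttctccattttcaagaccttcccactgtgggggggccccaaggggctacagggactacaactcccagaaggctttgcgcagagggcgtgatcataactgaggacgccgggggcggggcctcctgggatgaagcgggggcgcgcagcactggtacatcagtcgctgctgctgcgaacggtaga
Txndc5: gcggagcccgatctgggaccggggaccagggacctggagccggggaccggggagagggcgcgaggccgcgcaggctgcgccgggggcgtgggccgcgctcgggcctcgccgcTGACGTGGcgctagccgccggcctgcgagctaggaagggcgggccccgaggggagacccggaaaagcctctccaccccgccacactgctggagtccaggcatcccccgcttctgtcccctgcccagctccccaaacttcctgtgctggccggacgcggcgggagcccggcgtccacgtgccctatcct
The ERSE of Pdia6 lies in the direction of the gene at bases -98 to -80 from the start, and that of Ero1lb on the other strand at -201 to -183. The UPRE core of Txndc5 lies at -138 to -131 from the third of its starts. The CCACG of Pdia4 lies after the start, at 37 to 41.

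The genotypes were compared to ask how mRNA of these enzymes differs when CD11c-expressing cells lack XBP1. Pdia4 fell, and it was the only 1 of the 10 that passed the test across all genes, at a Benjamini-Hochberg adjusted p under 0.05. Of 15958 genes tested, 0.445% passed in either direction and 0.288% were lower (25 higher and 46 lower). With scaling by library size alone 13 of 25 calls were higher, and with upper quartile scaling 23 of 50. Lower values without a call were found for P4hb, Pdia5, Pdia6, Tmx1, Erp44 and Ero1lb, so that 7 of 10 fold changes were below 0, against 43.9% of all genes. In 6 of the 10 (P4hb, Pdia4, Pdia5, Pdia6, Tmx1 and Ero1lb) every XBP1-KO library was below every WT library, which held for 10.4% of all genes, and 4 of the 10 (P4hb, Pdia4, Pdia5 and Pdia6) were lower at an unadjusted p under 0.05, against 8.26% of all genes. Pdia3, Txndc5 and Ero1l had values near or above those of WT. The median log2 fold change of the 10 was -0.35, and that of all genes tested was 0.06.

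**Figure D1:**
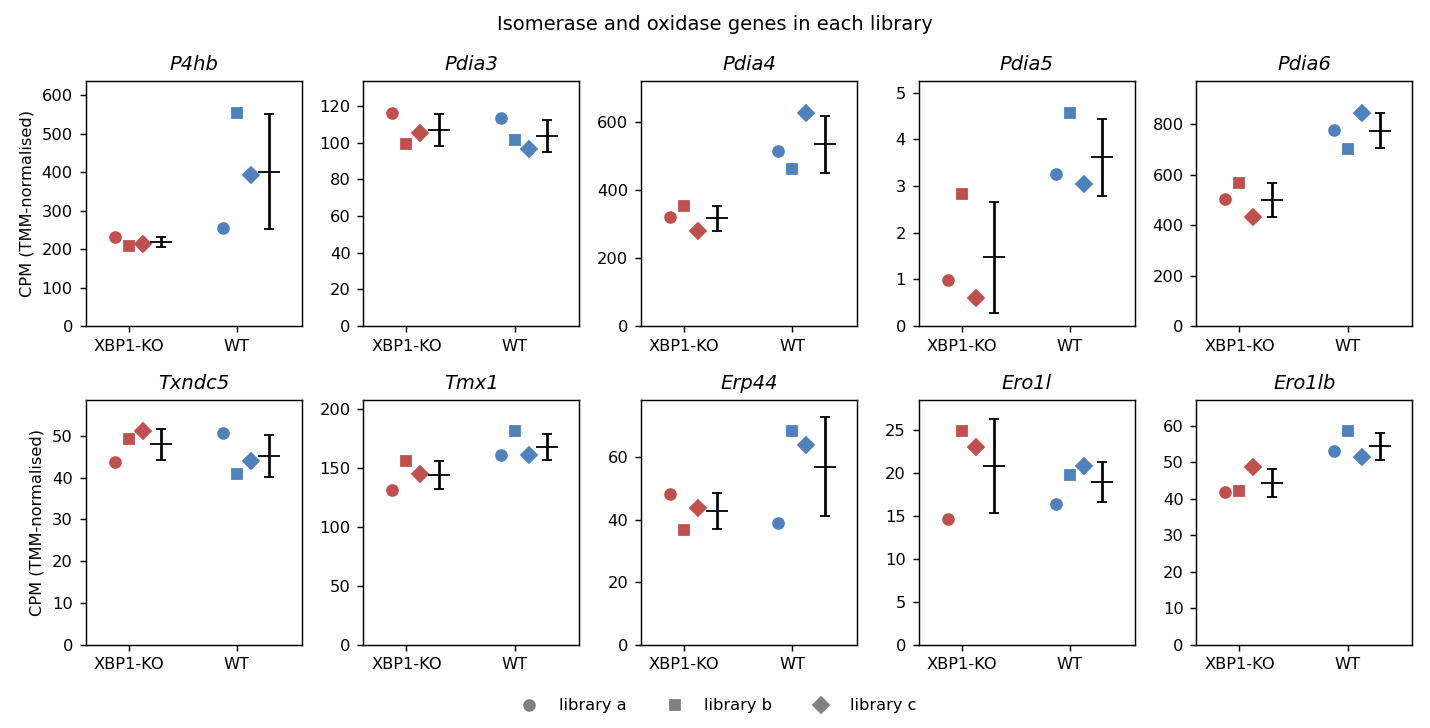
TMM-normalised CPM of each gene (y axes from 0, a scale per gene) in the 3 XBP1-KO and 3 WT libraries (circles a, squares b, diamonds c), with the mean and SD in black. Pdia4 and Pdia6 show 2 separate groups, P4hb and Erp44 have 1 WT library near the XBP1-KO values, and Pdia3 and Txndc5 overlap.

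Pdia4 is an isomerase of the ER lumen with several catalytic thioredoxin domains. Its counts were 8727, 10443 and 9170 in the XBP1-KO libraries and 14540, 13079 and 18753 in the WT libraries (in the order a, b, c, as in all values that follow), which gave 319, 352 and 278 CPM in XBP1-KO and 514, 463 and 626 CPM in WT. The highest XBP1-KO library, b, lay below the lowest WT library, also b. The mean was 317 ± 37.1 CPM in XBP1-KO and 534 ± 83.6 CPM in WT (SD, n = 3 each), a fold change of 0.593. Its log2 fold change was -0.75 (SE 0.15, 95% interval -1.07 to -0.44) with an adjusted p of 0.0466, and it ranked 63 by p among all genes. The call ended in 11 of 19 alternatives, without XBP1-KO a (adjusted p 0.163), XBP1-KO c (0.177), WT a (0.0751) or WT c (0.267) among them, while the log2 fold change stayed between -0.95 and -0.63.

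Pdia6 is an isomerase that binds the chaperone BiP and is known to bind IRE1 and limit its activity. It had 503, 566 and 432 CPM in the XBP1-KO libraries and 777, 702 and 844 CPM in the WT libraries, and again b was the highest of XBP1-KO and the lowest of WT without overlap. The mean was 500.0 ± 67.0 CPM in XBP1-KO and 775 ± 70.9 CPM in WT, a log2 fold change of -0.63 (SE 0.14, 95% interval -0.93 to -0.33) with an adjusted p of 0.0696. It did not pass here and passed in 6 of 19 alternatives. Among these were the 4 libraries other than XBP1-KO b and WT b (adjusted p 0.0303), XBP1-KO b and WT b as a batch term (0.0253) and XBP1-KO b left out (0.0397). It did not pass without XBP1-KO a (adjusted p 0.205), XBP1-KO c (0.234), WT a (0.128), WT b (0.0694) or WT c (0.339). In the 4 libraries other than XBP1-KO b and WT b, Pdia4 had a log2 fold change of -0.95 with an adjusted p of 0.0303.

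P4hb encodes the protein disulfide isomerase after which the family is named, which is also a subunit of prolyl 4-hydroxylase and of the microsomal triglyceride transfer protein. It had 232, 207 and 213 CPM in the XBP1-KO libraries and 255, 554 and 393 CPM in the WT libraries. The XBP1-KO values lay within 1.12-fold of each other, while the WT values ran over 2.17-fold, with WT a just above the XBP1-KO libraries. The log2 fold change was -0.88 (SE 0.24, 95% interval -1.41 to -0.35) with an adjusted p of 0.145. It was -1.12 with an adjusted p of 0.0224 without WT a, -0.61 with 0.171 without WT b, and -0.56 with 0.192 in the 4 libraries other than XBP1-KO b and WT b. P4hb passed in 3 of 19 alternatives. Besides the fit without WT a, these were DESeq2 (adjusted p 0.00518) and the likelihood ratio test (adjusted p 0.0351), both on all 6 libraries.

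Pdia5 is known from human cells to act on the disulfides of ATF6 during its activation, and it was the scarcest of the genes. It had 27, 84 and 20 counts in the XBP1-KO libraries and 92, 129 and 91 in the WT libraries, or 0.988, 2.83 and 0.607 CPM in XBP1-KO and 3.25, 4.57 and 3.04 CPM in WT. Library b was the highest of each genotype, and XBP1-KO b came close to WT c. The log2 fold change was -1.29 (SE 0.50, 95% interval -2.38 to -0.20) with an adjusted p of 0.299. With XBP1-KO b left out it was -2.20 (adjusted p 0.0369), and with WT b left out as well the adjusted p was 0.0905. It was -1.08 without XBP1-KO a (adjusted p 0.592) and -0.94 without XBP1-KO c (adjusted p 0.470).

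Pdia3 works with the lectin chaperones calnexin and calreticulin on glycoproteins and sits in the MHC class I peptide-loading complex. It had 116, 99.3 and 106 CPM in the XBP1-KO libraries and 113, 101 and 96.6 CPM in the WT libraries, with full overlap. Its log2 fold change was 0.04 (SE 0.13, adjusted p 0.912), and the 95% interval of -0.23 to 0.32 does not reach the estimates of Pdia4 or Pdia6. The sign turned without XBP1-KO a, at -0.023, and without WT c, at -0.009. Within a library, which needs no scaling, there were 2.75, 3.55 and 2.64 counts of Pdia4 per count of Pdia3 in XBP1-KO and 4.53, 4.56 and 6.48 in WT. The log2 ratio differed by -0.79, XBP1-KO minus WT (1.56 ± 0.23, against 2.35 ± 0.30 in WT, SD, n = 3 each, exact two-sided permutation p = 0.1, the smallest that 3 against 3 allows), with no overlap. It stayed between -1.01 and -0.62 with any 1 library left out or with XBP1-KO b and WT b left out.

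Txndc5, an isomerase with thioredoxin domains, had 43.8, 49.2 and 51.0 CPM in the XBP1-KO libraries and 50.6, 40.8 and 44.0 CPM in the WT libraries. The groups overlapped, with a log2 fold change of 0.09 (SE 0.14, 95% interval -0.22 to 0.40, adjusted p 0.830), and the sign turned without WT b, at -0.004, and in the 4 libraries other than XBP1-KO b and WT b, at -0.013. Tmx1 is anchored in the ER membrane and acts mainly on membrane-bound clients. It had 131, 156 and 144 CPM in the XBP1-KO libraries and 161, 181 and 161 CPM in the WT libraries. These did not overlap, but the difference was small, with a log2 fold change of -0.22 (SE 0.12, 95% interval -0.49 to 0.05, adjusted p 0.486).

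**Figure D2:**
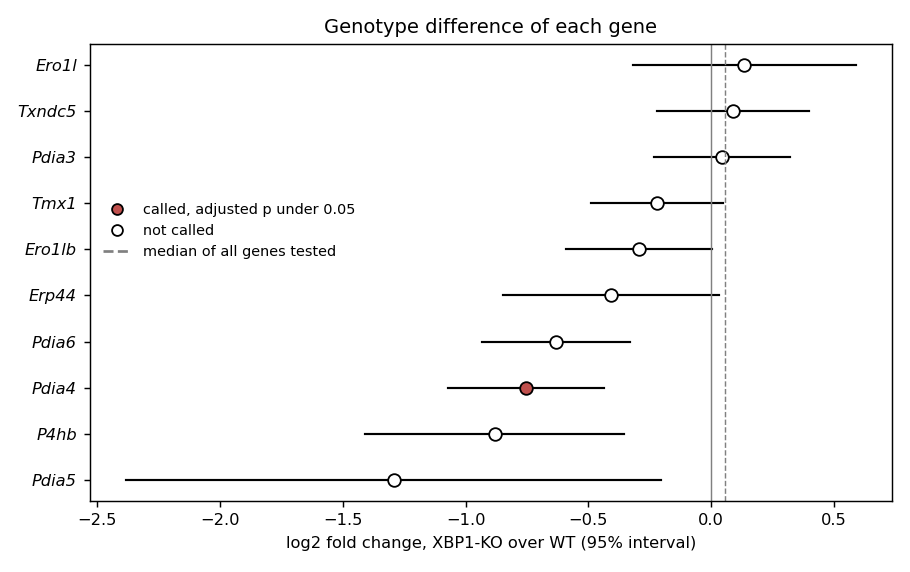
Log2 fold change, XBP1-KO over WT, of each gene (points) with its 95% interval (lines), and a dashed line at the median of all genes tested, 0.06. Only Pdia4 is filled as called. The intervals of Pdia4, Pdia5, Pdia6 and P4hb lie below 0, and those of the other 6 reach past it.

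Erp44 recaptures Ero1 enzymes and unfinished client proteins in the early secretory pathway and returns them to the ER. It had 48.1, 36.7 and 43.9 CPM in the XBP1-KO libraries and 38.8, 68.3 and 63.8 CPM in the WT libraries, so that WT a lay among the XBP1-KO values as it lay near them for P4hb. The log2 fold change was -0.41 (SE 0.20, 95% interval -0.85 to 0.03, adjusted p 0.431), -0.62 without WT a (adjusted p 0.130), and -0.18 in the 4 libraries other than XBP1-KO b and WT b (adjusted p 0.752).

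Of the oxidases, Ero1l is the widely expressed form, known to be induced by hypoxia and by the stress factor CHOP, and Ero1lb is known from secretory tissues such as the pancreas. Ero1l had 14.6, 24.9 and 23.1 CPM in the XBP1-KO libraries and 16.4, 19.7 and 20.8 CPM in the WT libraries, with library a the lowest of each genotype and the groups overlapping. Its log2 fold change was 0.14 (SE 0.21, 95% interval -0.32 to 0.59, adjusted p 0.821), and -0.02 without XBP1-KO b. Ero1lb had 41.9, 42.2 and 48.8 CPM in the XBP1-KO libraries and 53.1, 58.4 and 51.4 CPM in the WT libraries. These did not overlap, with a log2 fold change of -0.29 (SE 0.14, 95% interval -0.59 to 0.001, adjusted p 0.392). There were 0.349, 0.589 and 0.474 counts of Ero1l per count of Ero1lb in XBP1-KO and 0.309, 0.338 and 0.405 in WT. The log2 ratio was 0.40 higher in XBP1-KO (-1.12 ± 0.38, against -1.52 ± 0.20 in WT, SD, n = 3 each, exact two-sided permutation p = 0.2), and the values overlapped. The difference was 0.60 with XBP1-KO a left out, 0.22 with XBP1-KO b left out, and 0.20 in the 4 libraries other than XBP1-KO b and WT b. In these 2 ratios together the smaller p of 0.1 is also 0.2 after adjustment over both.

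**Figure D3:**
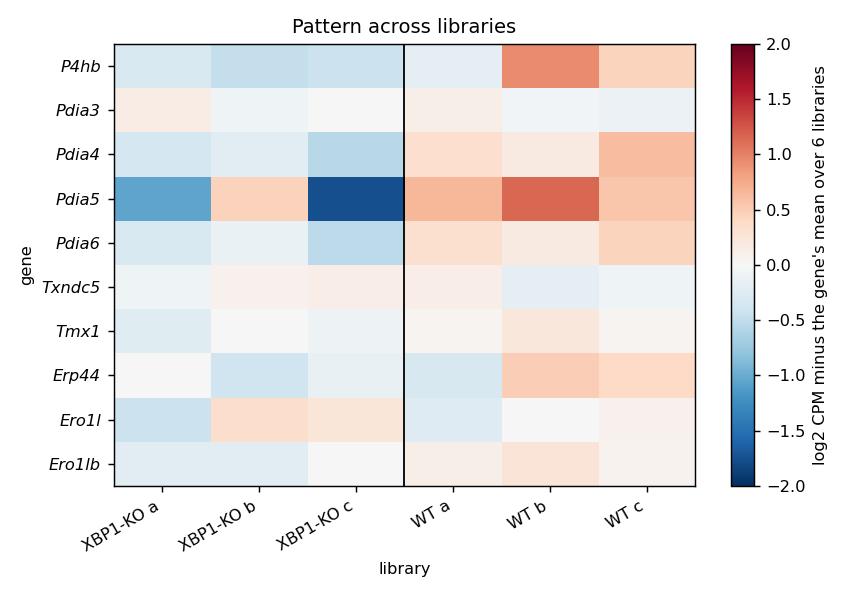
Log2 CPM of each gene (rows) minus its mean over the 6 libraries (columns, XBP1-KO left of the line), from blue (lower) to red (higher). Pdia4 and Pdia6 are blue in all 3 XBP1-KO libraries and red in all 3 WT libraries, Pdia5 is red in XBP1-KO b at 0.46, and P4hb and Erp44 are blue in WT a at -0.17 and -0.32.

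Levels of different genes were compared per length, as CPM per kb of the longest coding transcript in GENCODE M21. Pdia6 was the highest in both genotypes, with 230 ± 30.8 CPM per kb in XBP1-KO and 356 ± 32.6 CPM per kb in WT, above 97.9% of the 12426 tested genes with a length. Pdia4 followed with 132 ± 15.5 CPM per kb in XBP1-KO and 223 ± 34.9 CPM per kb in WT, and then P4hb with 76.0 ± 4.64 and 140 ± 52.1 CPM per kb in the same order. In WT the highest P4hb library, at 193.5 CPM per kb, reached the lowest Pdia4 library, at 193.0 CPM per kb, so these neighbours did not separate, while in XBP1-KO they did. Tmx1 had 51.4 ± 4.37 CPM per kb in XBP1-KO and 59.9 ± 4.07 CPM per kb in WT, and Pdia3 had 38.6 ± 3.10 CPM per kb in XBP1-KO and 37.5 ± 3.14 CPM per kb in WT.

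Erp44 had 16.3 ± 2.21 CPM per kb in XBP1-KO and 21.7 ± 6.05 CPM per kb in WT, and Txndc5 had 16.9 ± 1.32 CPM per kb in XBP1-KO and 15.9 ± 1.76 CPM per kb in WT, and their values overlapped in both genotypes. The oxidases were lower still. Ero1lb had 10.4 ± 0.915 CPM per kb in XBP1-KO and 12.8 ± 0.865 CPM per kb in WT, and Ero1l had 4.72 ± 1.24 CPM per kb in XBP1-KO and 4.30 ± 0.525 CPM per kb in WT. In every library Ero1lb was above Ero1l. Pdia5 was last, with 0.816 ± 0.658 CPM per kb in XBP1-KO and 2.00 ± 0.457 CPM per kb in WT.

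**Figure D4:**
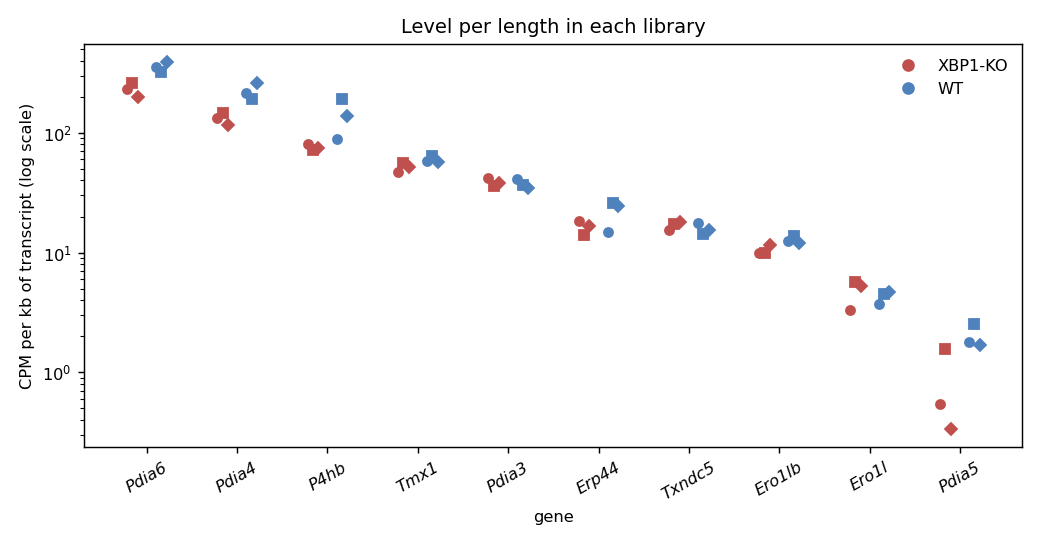
CPM per kb of transcript (log axis) of each gene in the 3 XBP1-KO (red, left) and 3 WT (blue, right) libraries, with circles for library a, squares for b and diamonds for c. The genes span from Pdia6 at 356 to Pdia5 at 2.00 CPM per kb in WT on average, and all but Pdia3, Txndc5, Erp44 and Ero1l keep the genotypes apart.

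Summed over the 10 genes, the family had 1451, 1535 and 1340 CPM in the XBP1-KO libraries and 1983, 2193 and 2304 CPM in the WT libraries, with no overlap. The mean was 1442 ± 97.7 CPM in XBP1-KO and 2160 ± 163 CPM in WT (SD, n = 3 each), or 0.668 of the WT level. Pdia4 and Pdia6 together made up 56.5% ± 3.42 of this sum in XBP1-KO and 60.7% ± 6.57 in WT. The other 8 genes summed to 626 ± 7.24 CPM in XBP1-KO and 851 ± 168 CPM in WT. As a share of the family, Pdia3 made up 8.01%, 6.47% and 7.87% in the XBP1-KO libraries and 5.72%, 4.63% and 4.19% in the WT libraries, which did not overlap, and the shares of Txndc5, Tmx1, Ero1l and Ero1lb were likewise higher in every XBP1-KO library. In CPM, Tmx1 and Ero1lb were lower in every XBP1-KO library, and Pdia3, Txndc5 and Ero1l overlapped. No test was made on these sums and shares, which are dominated by the abundant genes.

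The mean pattern of the 10 genes, as centred log2 CPM, was -0.29, -0.06 and -0.31 in the XBP1-KO libraries and 0.10, 0.32 and 0.25 in the WT libraries. Among 9697 other genes with a mean of at least 5 CPM, the 5 with the smallest root mean square difference from it over the 6 libraries were Ubap2l (0.023), Ptprc (0.023), Tmod3 (0.031), Rassf1 (0.034) and mKIAA0031 (0.035). Ptprc is the leukocyte antigen CD45 and had 763 CPM in XBP1-KO and 1061 CPM in WT on average. Of the 10 genes themselves Tmx1 (0.13), Ero1lb (0.16) and Pdia6 (0.16) came closest to the mean pattern and Pdia5 (0.82) stood farthest from it. The mean gives all 10 equal weight, and Pdia5, with the fewest counts, was at -1.06, 0.46 and -1.76 in the XBP1-KO libraries. The gap in the mean between XBP1-KO b and the libraries a and c therefore rests largely on this scarce gene. The 5 genes were matched to that mean, and no match without Pdia5 was made.

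Other genes of oxidative folding and of its control were read from 6 lists with 79 genes besides the 10, of which 73 were tested. None of the 73 passed in edgeR's quasi-likelihood test. At an unadjusted p under 0.05, 16 of the 73 were lower and 6 higher, against 8.26% and 4.59% of all genes. Xbp1, the gene deleted in the XBP1-KO mice, is among the 16, so its part in these counts reflects the genotype itself. DESeq2 called 5 (Txndc16, Tmx3, Xbp1, Arnt and Atf6), against 3.17% of all genes to which it gave an adjusted p. The median log2 fold change was -0.12. Among 12 tested of 17 other ER genes with a thioredoxin fold or a related role, 8 were below 0 and 4 above, with a median of -0.20. The smallest p was that of Tmx3, a membrane-anchored isomerase, with 81.3, 96.4 and 83.1 CPM in XBP1-KO and 124, 126 and 140 CPM in WT (log2 fold change -0.58, SE 0.13, adjusted p 0.0696). Sep15, a selenoprotein that binds the glycoprotein folding sensor, had 267 ± 20.2 CPM in XBP1-KO and 253 ± 26.0 CPM in WT, and Erp29, a lumenal member without the catalytic cysteines, had 186 ± 10.8 CPM in XBP1-KO and 233 ± 13.4 CPM in WT. Agr2, Pdia2, Pdilt, Agr3 and Selm were too low to be tested.

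Of 12 other enzymes of thiol oxidation and reduction, 7 were below 0 and 5 above, with a median of -0.06. Prdx4, the ER peroxiredoxin that takes up hydrogen peroxide made by Ero1, had 76.7 ± 6.64 CPM in XBP1-KO and 67.7 ± 4.31 CPM in WT (adjusted p 0.601). Vkorc1, the vitamin K reductase that can also oxidise isomerases, had 45.0 ± 4.09 CPM in XBP1-KO and 46.6 ± 12.2 CPM in WT, and the smallest p was that of Aifm2, a membrane-bound oxidoreductase (adjusted p 0.316).

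Of 13 proteins that work with a member in a complex, 11 were below 0 and 2 above, with a median of -0.16. P4ha1, the catalytic subunit that pairs with P4hb in prolyl 4-hydroxylase, had 59.6, 82.9 and 60.0 CPM in XBP1-KO and 92.0, 106 and 94.7 CPM in WT (log2 fold change -0.53, SE 0.15, adjusted p 0.144), without overlap. Hspa5, the chaperone BiP, had 1152 ± 159 CPM in XBP1-KO and 1288 ± 140 CPM in WT (adjusted p 0.672), and Hsp90b1, the ER form of Hsp90, had 784.5 ± 30.8 CPM in XBP1-KO and 945 ± 55.0 CPM in WT (adjusted p 0.379).

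Of 13 stress sensors and transcription factors, 10 were below 0 and 3 above, with a median of -0.32. Xbp1, the deleted gene, was among the 10 and had the smallest p. Hif1a, the oxygen-regulated factor, had 126 ± 19.7 CPM in XBP1-KO and 171 ± 31.4 CPM in WT (adjusted p 0.250), and Creb3, a factor of the ER membrane, 147 ± 9.93 CPM in XBP1-KO and 169 ± 17.1 CPM in WT (adjusted p 0.556). The 14 hypoxia targets split into 7 below 0 and 7 above, with a median of -0.09 and with P4ha1 as the smallest p. Ldha and Pgk1, enzymes of glycolysis, had 873 ± 163 and 310 ± 43.1 CPM in XBP1-KO and 1024 ± 52.7 and 413 ± 36.9 CPM in WT. Of 13 tested targets of ATF4 and CHOP, 5 were below 0 and 8 above, with a median of 0.18. Asns, asparagine synthetase, had 14.2 ± 3.48 CPM in XBP1-KO and 8.56 ± 2.39 CPM in WT (adjusted p 0.228), while Mthfd2 and Nupr1, the highest of the list, had adjusted p-values of 0.517 and 0.736.

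**Figure D5:**
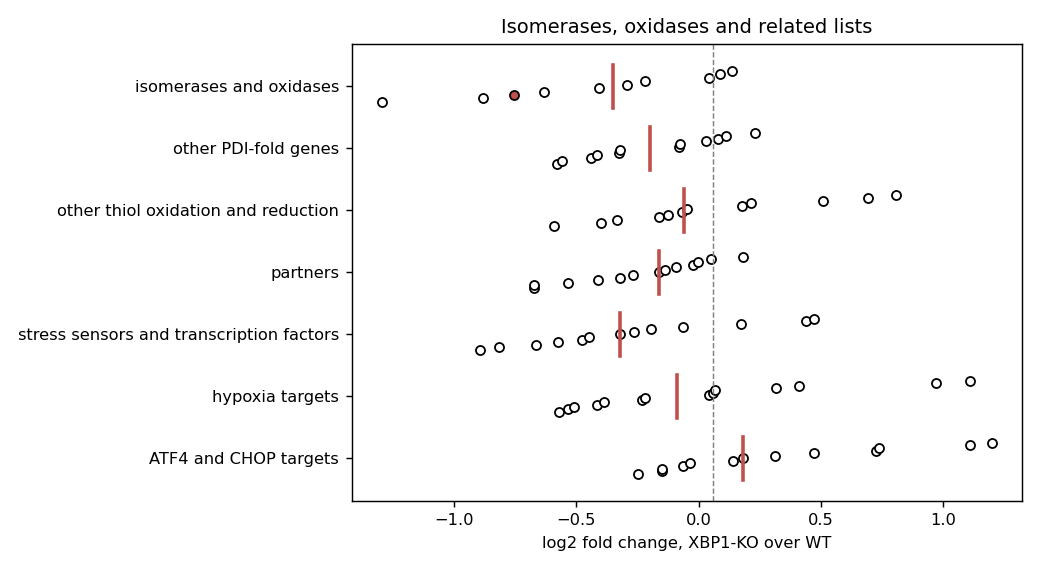
Log2 fold change, XBP1-KO over WT, of each tested gene (points) by list, with the list's median (red bar) and the median of all genes tested (dashed). Filled points passed the test, which was Pdia4 alone. The medians run from -0.35 for the isomerases and oxidases to 0.18 for ATF4 and CHOP targets.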

How the data were processed

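RNA-seq counts of 6 libraries were used. Per the labels' protocols, each RNA was extracted on its own (mirVana, MinElute) before Illumina library preparation. The submitters' processing notes name RSEM, edgeR and the build mm9; versions, annotation and strand setting: not given in the sources used here. As files the authors deposited whole-number counts per gene symbol, not normalized, and a second table of deposited CPM values, each a count scaled to its library's total (largest difference 5.1e-11), for the 13946 genes above 1 CPM in at least 2 libraries, all 10 members among them.

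The main test used edgeR 4.0.16 (R 4.3.3; filterByExpr, TMM scaling, robust quasi-likelihood F test, two-sided, Benjamini-Hochberg over 15958 genes, threshold 0.05). Standard errors are the absolute log2 fold change over the square root of F, and CPM in the text is TMM-normalised. Library pairs of a genotype differed beyond sampling noise (chi-square per degree of freedom 22.5 to 74.5, genes of at least 20 counts). The test was checked on simulated counts. The alternatives are DESeq2 1.42.0, limma 3.58.1 (voom, and the deposited CPM on a log2 scale with 1 or 0.1 added), the likelihood ratio test, other scalings and filters, no robust estimation, each library left out, and XBP1-KO b and WT b left out or as a batch term. That last grouping was read from these data, not from the labels. The ratio of counts of 2 genes was tested by exact permutation.

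Members and lists were chosen with earlier results of these data known. Named are the 10 members, Xbp1, of each list of related genes the smallest p and the 2 highest mean CPM, of marker lists the 2 highest and any called, and the 5 genes of most similar pattern; genes that DESeq2 called or that were too low to test, and the marker at 0 in a library, were named after their values were seen. Itgax and Ciita were likewise named after their values were seen. Of 172 list entries 169 matched a row, by symbol or an unambiguous synonym in RefSeq GRCm38.p6. That build is not the counts' mm9, so its promoters carry no count data.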

Additional observations from a re-analysis of the deposited data

How the results depend on the processing

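Over 19 alternatives the number of the 10 genes that passed, 1 in the test reported (Pdia4), was 3 with DESeq2 and the likelihood ratio test, 2 with no filter on low counts, with XBP1-KO b and WT b left out and with them as a batch term, and 0 with limma-voom, upper quartile scaling, library size alone, RLE scaling, no robust estimation and the deposited CPM with either 1 or 0.1 added. DESeq2 and the likelihood ratio test both called P4hb, Pdia4 and Pdia6. Leaving out 1 library gave 0 to 3. The genes that passed were always among P4hb, Pdia4, Pdia5 and Pdia6, all lower in XBP1-KO, and the adjusted p of Pdia4 ran from 0.00149 to 0.267. Of all genes, 71 passed, against 465 with DESeq2, 47 with limma-voom, 255 with the likelihood ratio test, 252 with no filter, 45 without robust estimation, 426 with the batch term, 25 with library size alone and with the deposited CPM plus 1, 13 with 0.1 added, and 5 to 154 with 1 library left out. The 79 related genes were counted wherever they were tested, which was 73 in the test reported and not always the same genes elsewhere. Of them 0 passed, against 5 with DESeq2 and with the batch term, 2 with the likelihood ratio test, 3 with no filter, 1 with a filter at 1 CPM and without XBP1-KO b and WT b, and 0 to 2 with 1 library left out. These counts include Xbp1, the deleted gene, where it passed, as with DESeq2 and with the batch term. P4hb, Pdia4, Pdia5, Pdia6, Tmx1, Erp44 and Ero1lb were below 0 in all 19. With 1 library left out Pdia3 ran from -0.023 to 0.109 (-0.0092 without WT c), Txndc5 from -0.0043 to 0.176 and Ero1l from -0.021 to 0.333, and Txndc5 was -0.013 without XBP1-KO b and WT b. The cause of these changes was not tested. The 2 ratios and the summed level kept their direction wherever recomputed. No paired analysis was possible because the columns carry no replicate number. Pdia5 had the fewest counts, 20 to 129 per library, and so the largest counting error of the 10.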
